A study of Mus musculus with 6 samples.

Results

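The 10 genes described here coat the lipid droplet or act in releasing fatty acids from it, and were followed in the atria of mice on a high fat diet. They are 10 of the 43432 genes in the deposited table, chosen by name: the lipases *Pnpla2*, *Lipe* and *Mgll*, the lipase partners *Abhd5*, *G0s2* and *Hilpda*, and the droplet coat genes *Plin2*, *Plin3*, *Plin4* and *Plin5*. The table writes gene names in capitals, so names were matched without regard to case, and each gene had a single row. Wild-type C57/Bl6J mice received a high fat diet (obese, n = 3) or control chow (lean, n = 3) from 6 weeks of age for 10 weeks, and RNA of right and left atrial tissue was sequenced. The diets are those of the sample titles and of the table's column names. The labels contradict themselves, since their treatment entry swaps the diets in each of the 6 samples, and every direction given here would turn around if that entry were right.

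Triacylglycerol in cells is stored in droplets whose surface is covered by perilipins. Adipose triglyceride lipase, the product of *Pnpla2*, removes the first fatty acid, hormone-sensitive lipase (*Lipe*) acts mainly on the resulting diacylglycerol, and monoacylglycerol lipase (*Mgll*) releases the last fatty acid. In heart muscle droplets are small and their turnover supplies fatty acids both for oxidation and for activating PPAR nuclear receptors. Adipocytes use the same enzymes but coat their droplets mainly with *Plin1*, so atrial RNA that includes adjacent fat would carry them as well. In bulk tissue a change in the number of cells of a type and a change in RNA per cell cannot be told apart.

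Values are normalized counts, that is, the authors' read count of a gene divided by a size factor for its library. Reads on genes ranged from 15874251 to 28971508 per mouse, lean mouse 2 being the deepest, with 30.7% of its reads on mitochondrial genes against 19.5% to 24.4% in the others. The summed level of 6 atrial myocyte markers was 287590 and 288452 in obese mice 1 and 2, against 520943 in obese mouse 3 and 445759 to 485424 in the lean mice, so obese mice 1 and 2 stood apart. The atrial genes *Nppa* and *Myl7* were nevertheless abundant in every library, with at least 171702 and 27168 normalized counts. *Nppa*, *Myl4* and *Myl7* made up most of this sum, and the other markers did not divide the obese mice in this way. In obese mice 1, 2 and 3 *Sbk2* had 2526, 2656 and 2368 normalized counts, *Sln* 23714, 19693 and 19799, and *Bmp10* 1386, 5575 and 7960. Obese and lean mice were compared by limma, on the log2(normalized count + 1) scale, over the 15275 genes with a mean of at least 10, and a gene was called when its Benjamini-Hochberg adjusted p was under 0.05. All 10 genes passed the filter, with between 49 and 12107 reads behind each value. With 3 mice a group the smallest p of an exact permutation test is 0.1, and p-values measure the spread between these mice alone.

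*Lipe*, *Mgll*, *Plin2* and *Plin5*, 4 of the 10 genes, were called higher in obese atria, where 0.484% of all genes tested were called in that direction. None was called lower by limma, edgeR or DESeq2, a call that limma made for 0.262% of all genes, and none had an unadjusted limma p under 0.05 in that direction. The unadjusted p was under 0.05 with a higher level in obese mice for 6 of the 10, against 6.66% of all genes. In 6 of the 10 every obese mouse lay above every lean mouse, against 8.86% of all genes. The median log2 fold change of the 10 was 0.59, and that of all genes tested was 0.0049. The 10 genes were chosen with earlier results of these data known, so these shares are not an independent test. The number called ranged from 0 to 5 when single mice were left out, and it was 0 when limma was fitted without a variance trend. *Lipe* alone was called with edgeR, with quantile normalization and with mitochondrial genes left out, while DESeq2 called 5.

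**Figure D1:**
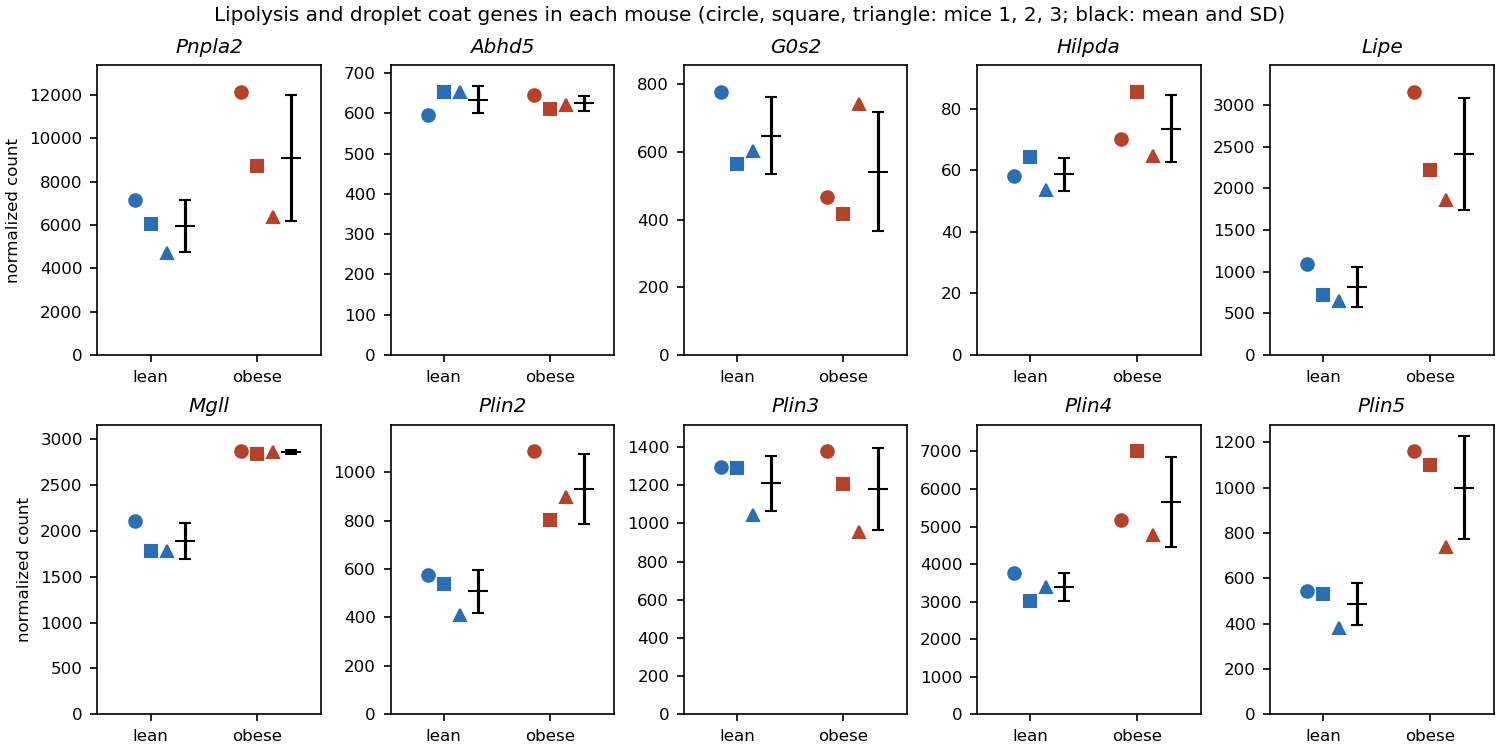
Normalized count of each gene (vertical axes, each starting at 0) in the 3 lean mice (blue) and the 3 obese mice (red), with circles, squares and triangles for mice 1, 2 and 3 and black bars for the mean and SD. *Lipe* in obese mice (1862 to 3163) lies above *Lipe* in lean mice (643 to 1091), while *Abhd5* and *Plin3* overlap.

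*Lipe* showed the greatest fitted difference of the 10. The gene lies on the minus strand of chromosome 7 (25379527 to 25398710, GRCm38). Its normalized counts were 3163, 2219 and 1862 in obese mice 1, 2 and 3, and 1091, 725 and 643 in lean mice 1, 2 and 3. The groups were apart, the lowest obese mouse being 1.71-fold above the highest lean mouse, and within each diet the highest mouse was 1.70-fold above the lowest. The fitted log2 fold change was 1.56 ± 0.22 (SE), a 2.95-fold difference with a 95% interval of 2.09 to 4.16 (limma adjusted p = 0.017). With single mice left out the log2 fold change stayed between 1.35 and 1.79, and the call was made in 3 of 6 such fits (adjusted p from 0.0032 to 0.082), being lost without obese mouse 2, lean mouse 2 or lean mouse 3. Without a variance trend the adjusted p was 0.18.

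*Pnpla2*, which encodes the rate-limiting lipase, had the highest level of the 10. It lies on chromosome 7 as well (141455198 to 141460743, plus strand). Obese mice 1, 2 and 3 had 12162, 8747 and 6369 normalized counts, and lean mice 1, 2 and 3 had 7137, 6029 and 4724. The groups overlapped, because obese mouse 3 lay below lean mouse 1. The fitted fold was 1.49 with an interval of 1.06 to 2.10, and the gene was not called (limma adjusted p = 0.33). With single mice left out its log2 fold change, 0.58 in all mice, ranged from 0.34 without obese mouse 1 to 0.81 without obese mouse 3, where the limma adjusted p was 0.0501.

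*Mgll* was the least variable of the called genes in obese mice. It lies on the plus strand of chromosome 6 (88724412 to 88828360). Obese mice had 2875, 2835 and 2867 normalized counts, a spread of 1.01-fold, and lean mice had 2113, 1779 and 1781. Every obese mouse lay above every lean mouse, and the fitted fold was 1.52 with an interval of 1.28 to 1.80 (limma adjusted p = 0.043). The call held in 4 of 11 other settings and in 1 of 6 fits without a mouse, while the log2 fold change kept between 0.56 and 0.68 in all of them.

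None of the 3 partners of the *Pnpla2* lipase was called by limma, edgeR or DESeq2, and none had an unadjusted limma p under 0.05. *Abhd5* encodes CGI-58, the protein that activates adipose triglyceride lipase, and it is on chromosome 9 (122351608 to 122381524, plus strand). Its normalized counts were 646, 609.9 and 620.2 in obese and 597, 654 and 653 in lean mice. The groups overlapped, and the interval of its fold, 0.826 to 1.18, left out the fitted folds of all 4 called genes (limma adjusted p = 0.97).

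*G0s2*, on chromosome 1 (193272161 to 193273217, minus strand), encodes an inhibitor that binds this lipase directly. Obese mice had 466, 415 and 743 normalized counts and lean mice had 778, 564 and 601. Obese mice 1 and 2 lay below every lean mouse and obese mouse 3 above lean mice 2 and 3. The atrial marker sum, mostly *Nppa*, *Myl4* and *Myl7*, also set obese mice 1 and 2 apart from obese mouse 3. The part of the atrial markers in this pattern was not tested. The fitted fold was 0.817 with an interval of 0.588 to 1.13 (limma adjusted p = 0.64), and with single mice left out the log2 fold change, -0.29 in all mice, ranged from -0.12 without obese mouse 2 to -0.54 without obese mouse 3 (limma adjusted p = 0.92 and 0.13).

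*Hilpda* encodes a hypoxia-inducible droplet protein that also inhibits adipose triglyceride lipase, and it lies on chromosome 6 (29272488 to 29275446, plus strand). It had the lowest level, with 70.3, 85.7 and 64.7 normalized counts in obese and 58.2, 64.3 and 53.6 in lean mice, from 49 to 94 reads. Every obese mouse lay above every lean mouse, but the lowest obese value exceeded the highest lean value by only 1.01-fold. The fitted fold of 1.24 had an interval of 0.861 to 1.80 (limma adjusted p = 0.65).

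**Figure D2:**
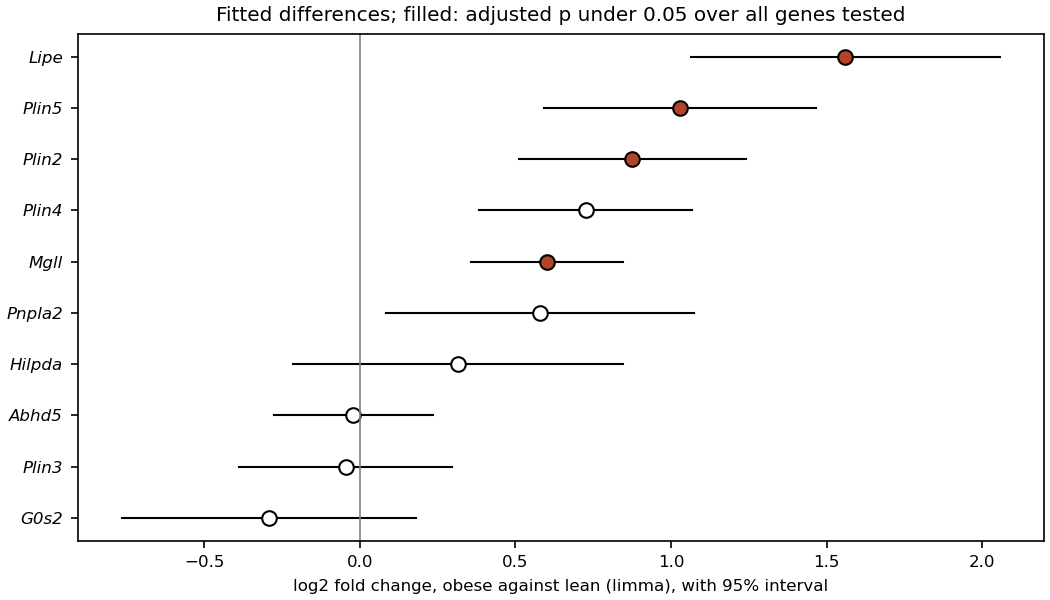
Fitted log2 fold change of each gene, obese against lean, on the horizontal axis with its 95% interval from limma (n = 3 mice a group), and filled points for the called genes. *Lipe* is farthest from 0 at 1.56, and the intervals of *Hilpda*, *Abhd5*, *Plin3* and *G0s2* span 0.

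Of the coat genes, *Plin2* and *Plin5* were called higher. *Plin2* encodes the coat of most non-adipose cells, whose protein is stabilised by stored lipid, and lies on chromosome 4 (86648386 to 86670060, minus strand). It had 1089, 804 and 898 normalized counts in obese and 576, 539 and 409 in lean mice. The groups were apart and the fitted fold was 1.84, with an interval of 1.43 to 2.36 (limma adjusted p = 0.046).

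*Plin5*, the coat protein of oxidative tissues that links droplets to mitochondria, lies on chromosome 17 (56111601 to 56117596, minus strand). Obese mice had 1162, 1099 and 739 normalized counts and lean mice had 545, 532 and 381. The groups were apart, with a fitted fold of 2.04 and an interval of 1.51 to 2.76 (limma adjusted p = 0.049). For both *Plin2* and *Plin5* the call was kept in 1 of 6 fits without a mouse, that without obese mouse 3. It was also lost with edgeR (TMM), where the adjusted p was 0.057 for each and the log2 fold changes were 0.87 and 1.04, against 0.88 and 1.03 with limma.

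*Plin4*, a coat protein of adipocytes and striated muscle, lies next to *Plin5* (56100591 to 56109803, minus strand). Its normalized counts were 5160.4, 7016 and 4785 in obese and 3754, 3016 and 3379.7 in lean mice. The groups were apart, but the adjusted p was 0.066 (limma, fold 1.65, interval 1.305 to 2.10), so it was not called. DESeq2 called it (adjusted p = 0.00034), as did limma without obese mouse 3 (adjusted p = 0.017).

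*Plin3*, a widely expressed coat protein that moves between cytosol and droplets, is the remaining member on chromosome 17 (56278962 to 56290511, minus strand, as the deposited table gives it). Obese mice had 1380.3, 1208 and 954 normalized counts and lean mice had 1294, 1293 and 1045. The groups overlapped fully, and the fitted fold was 0.969 with an interval of 0.765 to 1.23 (limma adjusted p = 0.94). Its upper bound was below the lower bound for *Lipe*, *Mgll*, *Plin2*, *Plin4* and *Plin5*.

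The start-site sequences of *Plin2* and *Plin5* are shown because these coat genes were called and because PPAR receptors bind paired copies of the hexamer AGGTCA. Each sequence is the part of the 250 bases before the RefSeq start (GRCm38.p6) that lies outside the annotated gene, read 5′ to 3′ on the minus strand, with AGGTCA on either strand in capitals.
Plin2, chr4:86670061-86670309: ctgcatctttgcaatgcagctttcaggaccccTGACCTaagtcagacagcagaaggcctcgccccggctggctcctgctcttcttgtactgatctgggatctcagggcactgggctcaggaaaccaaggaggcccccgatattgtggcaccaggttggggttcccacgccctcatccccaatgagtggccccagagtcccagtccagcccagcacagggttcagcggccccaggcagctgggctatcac
Plin5, chr17:56117597-56117798: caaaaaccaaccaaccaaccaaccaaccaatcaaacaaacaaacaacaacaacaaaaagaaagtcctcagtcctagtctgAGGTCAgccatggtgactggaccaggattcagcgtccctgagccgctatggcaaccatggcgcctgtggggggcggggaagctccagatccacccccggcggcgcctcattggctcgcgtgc
The hexamer stood 218 to 213 bases before the *Plin2* start and 170 to 165 bases before the *Plin5* start. It occurred in 3 of the 14 windows listed for the 10 genes, the other being that of *Abhd5*, and in 14.02% of the windows of 32851 promoters. The windows of *Lipe* and *Mgll*, which were also called, did not hold it, and *Abhd5* was not called. A direct repeat of AGGTCA with a single base between the copies, with at most 2 mismatches, was found 225 to 213 bases before the *Plin2* start alone among the 10 genes, and in 3.24% of all promoters. The core of the hypoxia response element, ACGTG or GCGTG on either strand with overlapping matches counted, was found in 9 of the 14 windows (64.3%) and in 38.6% of all promoters. The windows include several starts for some genes and are not independent. Their GC content ran from 48.4% to 74.8% and was not matched to that of all promoters, so an excess of a motif cannot be read from these shares.

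Ratios of 2 genes within a mouse do not depend on the scaling of the library, and 7 were compared. *Lipe* stood at 26.0%, 25.4% and 29.2% of the normalized count of *Pnpla2* in obese mice 1, 2 and 3, and at 15.3%, 12.02% and 13.6% in lean mice. These groups were apart with a narrow spread, the log2 ratio being -1.90 ± 0.11 in obese and -2.88 ± 0.17 in lean mice (SD, n = 3), a 1.98-fold difference. A two-sided exact permutation test gave p = 0.1, its lower limit, or 0.35 after Benjamini-Hochberg adjustment over the 7.

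The ratio of *Mgll* to *Lipe* was apart in the other direction, at 90.9%, 128% and 154% in obese and 194%, 245% and 277% in lean mice (exact p = 0.1, adjusted 0.35). *G0s2* stood at 3.83%, 4.75% and 11.7% of *Pnpla2* in obese and 10.9%, 9.35% and 12.7% in lean mice, so obese mouse 3 lay among the lean mice (exact permutation p = 0.3, adjusted 0.53). *Abhd5* stood at 5.31% to 9.74% of *Pnpla2* in obese and 8.36% to 13.8% in lean mice, which overlapped (exact permutation p = 0.2, adjusted 0.47). The groups also overlapped for *Hilpda* to *Pnpla2*, *Plin5* to *Plin2* and *Plin4* to *Plin5*, with log2 differences of -0.26, 0.15 and -0.30. Each of these 3 moved by over 1.5 times with a mouse left out, that of *Plin4* to *Plin5* to -0.13 without obese mouse 1 and to -0.14 without lean mouse 3. The log2 difference of *G0s2* to *Pnpla2*, -0.87, moved to -0.55 without obese mouse 1 and to -1.35 without obese mouse 3. That of *Abhd5* to *Pnpla2*, -0.60, moved to -0.39 and -0.83 in the same fits.

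**Figure D3:**
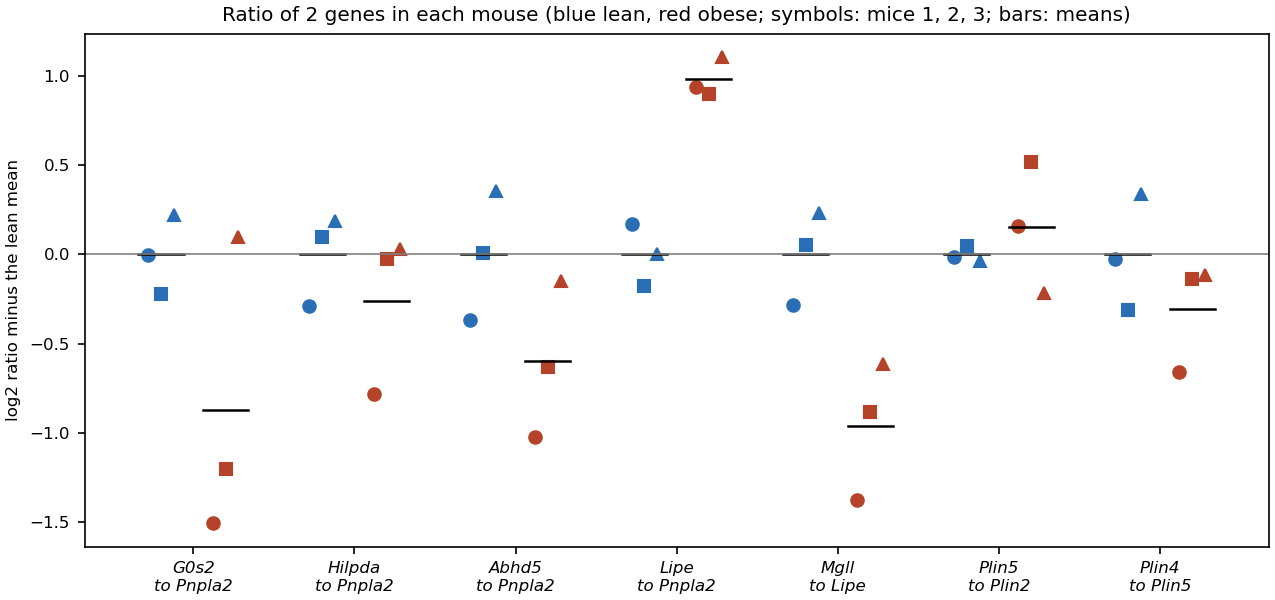
Log2 ratio of 2 genes in each mouse minus the lean mean of that ratio (vertical axis), for the 7 ratios (horizontal axis), with lean mice in blue, obese mice in red and black bars for the means. *Lipe* to *Pnpla2* and *Mgll* to *Lipe* are the ratios whose groups are apart, with differences of 0.98 and -0.96.

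Per kilobase of annotated exon, *Pnpla2* was the most abundant of the 10 in both diets, at 3011 ± 964 normalized counts per kb in obese and 1975 ± 400 in lean mice (SD, n = 3). *G0s2* and *Plin4* came next in lean mice and did not differ beyond their spread, followed in order by *Mgll*, *Plin3*, *Plin5* and *Plin2*, each with a range apart from that of the gene before it. *Plin2*, *Lipe* and *Abhd5* overlapped in turn, and *Hilpda* was lowest. In obese mice *Plin4*, *G0s2* and *Mgll* overlapped in turn below *Pnpla2*, then *Plin5*, *Lipe*, *Plin3* and *Plin2* in turn, with *Abhd5* and *Hilpda* apart at the bottom. *Plin5* and *Lipe* thus stood above *Plin3* by mean in obese mice and below it in lean mice. The lengths join the exons of all annotated transcripts, so a gene that uses few of them is understated. For *Plin3* alone the length came from a longer gene model (56277476 to 56292873) than that of the deposited table. Its level per kb may therefore be understated, and its place in the order is uncertain.

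Together the 4 coat genes reached 2125, 2289 and 1690.4 normalized counts per kb in obese and 1417, 1272 and 1160.2 in lean mice, and the groups were apart. *Plin4* held the greatest share of this pool in every mouse, 42.0% to 53.1% in obese and 41.0% to 50.4% in lean mice. *Plin3* held 17.2%, 13.9% and 14.9% in obese mice and 24.1%, 26.8% and 23.8% in lean mice. *Plin5* held 26.2%, 23.0% and 21.0% in obese mice and 18.4%, 20.1% and 15.8% in lean mice. Both shares were apart between the diets, with an exact permutation p of 0.1 and an adjusted p of 0.17 over the 5 measures of the pool, while the shares of *Plin2* and *Plin4* overlapped. These shares were added after the data had been seen, and they use the length of the longer *Plin3* gene model. They are built from the single-gene levels given above, so they are not independent of those differences.

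**Figure D4:**
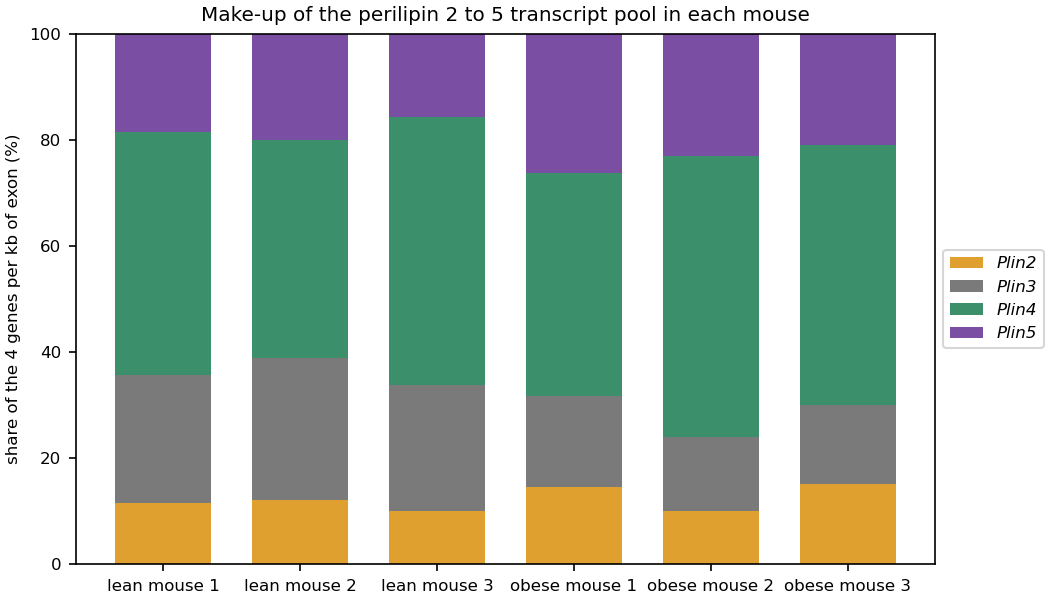
Share of *Plin2*, *Plin3*, *Plin4* and *Plin5* in the sum of the 4 genes per kb of exon (vertical axis, %) in each lean and obese mouse. The grey *Plin3* block takes 23.8% to 26.8% in lean and 13.9% to 17.2% in obese mice.

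Fat cell markers varied between mice, also within a diet. The summed level of 11 white adipocyte markers was 8128 to 15643 in obese and 4364 to 9575 in lean mice. *Fabp4* was the largest part of this sum, with 5075 to 8820 in obese and 2949 to 4228 in lean mice. The sum therefore reflects *Fabp4* more than *Adipoq* or *Plin1* and is not a measure of fat content. The cells that *Fabp4* came from were not tested. *Fabp4* was the 1 marker of the 11 whose groups were apart, and *Lep* and *Thrsp* were fitted lower. Of the 11, 0 were called with limma or edgeR and 1 (*Fabp4*) with DESeq2, and 3 had an unadjusted p under 0.05, 2 of them higher. *Plin1* was 491, 91.8 and 290 in obese mice 1, 2 and 3 and 326, 192 and 80.9 in lean mice 1, 2 and 3, and *Adipoq* was 533, 146 and 170 against 334, 149 and 67.8. Obese mouse 2 had less *Plin1* than lean mice 1 and 2 but more *Fabp4* (6273 against 4228 and 4169). Its *Lipe* count of 2219 was above the 1091 and 725 of those mice. Within the lean mice *Lipe*, *Pnpla2* and *Plin1* had the same order, and obese mouse 1 had the highest level of all 3.

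With the mean log2 level of the white markers as a covariate, chosen after seeing the data, *Lipe* and *Plin2* were called. *Mgll* (limma adjusted p = 0.053) and *Plin5* (0.075) were not. The log2 fold changes in that fit were 1.45 for *Lipe*, 0.79 for *Plin2*, 0.58 for *Mgll* and 0.97 for *Plin5*, against 1.56, 0.88, 0.60 and 1.03 without the covariate. Of 10 brown adipocyte markers 3 could be tested, and *Ucp1* and *Cidea* were called higher (log2 fold change 4.43 and 1.21, limma adjusted p = 0.045 and 0.031). With edgeR *Cidea* alone was called, and with DESeq2 these genes, *Dio2* and *Slc27a2* were. *Ucp1*, the uncoupling protein of brown fat, had 706, 173 and 745 normalized counts in obese and 86.2, 5.48 and 15.3 in lean mice, and *Dio2*, the deiodinase that activates thyroid hormone, had 136 to 172 in obese and 41.5 to 84.2 in lean mice. Every obese mouse lay above every lean mouse also for *Elovl3*, *Cpn2* and *Slc27a2*, whose normalized counts were at most 24.1. *Tbx15* overlapped at 5.10 to 15.9, and *Zic1*, *Lhx8* and *Kng2* were at 0 or at most 3.41 in every mouse. The part of white or brown fat cells in the levels of the 10 genes was not tested.

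**Figure D5:**
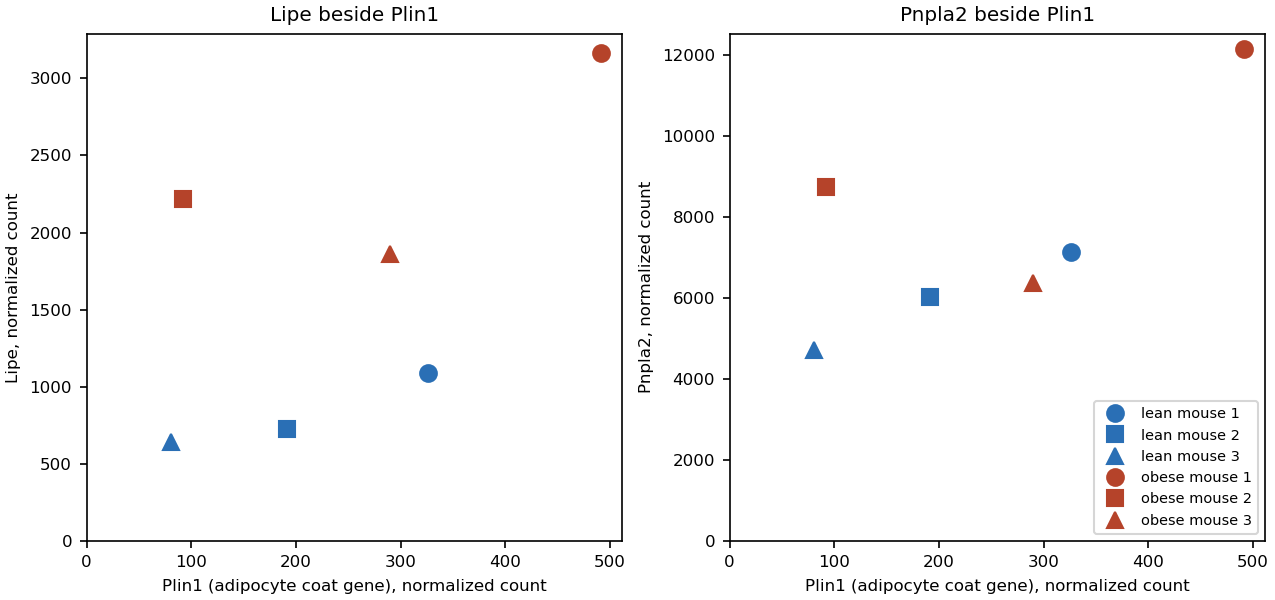
Normalized count of *Lipe* (left) and *Pnpla2* (right) on the vertical axes against that of the adipocyte coat gene *Plin1* on the horizontal axes, with a point for each lean (blue) and obese (red) mouse. Obese mouse 2 has 91.8 of *Plin1* and 2219 of *Lipe*, while lean mouse 1 has 326 of *Plin1* and 1091 of *Lipe*. Obese mouse 1 is highest in both, with 491 of *Plin1* and 3163 of *Lipe*.

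Among the 6 atrial myocyte markers *Sbk2* was called lower by limma, and 3 had an unadjusted p under 0.05, all lower. Among 7 macrophage markers *Itgam* was called higher and 3 had an unadjusted p under 0.05, all higher, with *Itgam* at 262 to 300 normalized counts in obese and 118 to 132 in lean mice. None of the 6 ventricular, 6 fibroblast, 6 endothelial or 6 mesothelial markers was called with limma or edgeR (unadjusted p under 0.05 for 1 of each), and DESeq2 called the endothelial *Pecam1*. The summed level of the macrophage markers was 8415 to 9756 in obese and 6389 to 8069 in lean mice. That of the endothelial markers was 15372 to 16980.1 in obese and 12934 to 13755 in lean mice. Both sums were apart between the diets, but most of the single markers were not. Of the endothelial markers *Pecam1* (5340 to 6259 in obese, 3842 to 4106 in lean mice) and *Tie1* were apart. *Cdh5*, *Kdr*, *Tek* and *Emcn* overlapped. Of the macrophage markers *Cd68* and *Itgam* alone were apart. The ventricular sum was 17499 in lean mouse 2 and 6958 to 9958 in the other mice. The part of these cells in the levels of the 10 genes was not tested.

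The genes that surround lipolysis were read from 6 further lists, which were also chosen with earlier results of these data known. PPAR-regulated fatty acid genes had the highest median log2 fold change, 0.64, with 4 of 14 called higher and 13 of 14 fitted higher, against 7761 of all 15275 genes tested; edgeR called 3 and DESeq2 11. *Angptl4*, a lipoprotein lipase inhibitor, had 1412 to 1851 normalized counts in obese and 32.8 to 80.6 in lean mice, and *Pdk4*, a kinase that restrains pyruvate dehydrogenase, had 28363 to 64656 against 4800.3 to 5700.3. *Ucp3*, a mitochondrial carrier, was called as well, at 691 to 2003 against 151 to 244.

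Of 12 other droplet proteins tested, *Cidea* alone was called by limma and edgeR, 4 had an unadjusted p under 0.05 (2 higher and 2 lower), and the median log2 fold change was -0.01. DESeq2 also called *Fitm1*, a droplet budding protein, lower, at 650 to 727 in obese and 945 to 1044 in lean mice (limma adjusted p = 0.066). None of 13 genes of triacylglycerol synthesis was called with limma (3 at an unadjusted p under 0.05, 2 called with DESeq2, median 0.19), the smallest p being that of *Agpat3*, an acyltransferase, with 3803 to 4201 normalized counts in obese and 2679 to 3246 in lean mice. None of 12 other lipases was called (1 at an unadjusted p under 0.05, 0 called with DESeq2, median 0.17), the smallest p being that of the carboxylesterase gene *Ces1d*, at 2729 to 3185 against 3709 to 3888.

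A list for the cAMP control of lipolysis held 16 genes, and it included the receptor genes *Npr1* and *Insr*, which lie outside the cAMP pathway. None was called with limma either (5 at an unadjusted p under 0.05, 3 higher and 2 lower, 3 called with DESeq2, median 0.19). Its smallest p was that of *Adcy6*, an adenylyl cyclase, with 4749.6 to 6894 normalized counts in obese and 3534 to 4077 in lean mice. The 2 lower genes were *Adrb1*, at 318 to 356 against 444 to 475, and *Prkaca*, at 3053 to 3431 against 3787 to 4601. DESeq2 called *Adcy6*, *Adrb3* (37.7 to 169 against 19.7 to 62.7) and *Prkar2b* (182 to 368 against 64.3 to 167), all higher. Of 12 hypoxia-inducible genes, the class to which *Hilpda* belongs, *Adm*, the gene of the vasodilator adrenomedullin, was called lower by limma, at 449 to 678 against 939 to 1092, a call that edgeR did not make. In this class 5 genes had an unadjusted p under 0.05 with a higher and 1 with a lower level, and the median was 0.23. DESeq2 called *Adm* and, higher, *Egln3*, a prolyl hydroxylase of the hypoxia-inducible factor, at 983 to 1536 against 698 to 803 (limma adjusted p = 0.13). DESeq2 called 20 genes over these 6 lists, where limma called 6.

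*Plin4* and *Plin5* are neighbours, with 1797 bases between them, and *Plin3* lies 161365 bases beyond *Plin5*. Within 100 kb of these 3 genes 18 other genes are annotated and 15 were tested. None was called with limma or edgeR, 1 (*Lrg1*) was called with DESeq2, 2 had an unadjusted limma p under 0.05, and their log2 fold changes ran from -0.29 to 0.94 with a median of 0.02. *Lrg1*, 2084 bases from *Plin5*, had 1161, 783 and 507 normalized counts in obese and 600.1, 403 and 334 in lean mice, so its groups overlapped (log2 fold change 0.84, limma adjusted p = 0.26).

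For each called gene the 3 tested genes with the nearest profile over the 6 mice were found, by the Euclidean distance between centred log2 values. *Lipe* was nearest to the metallothionein gene *Mt1* (distance 0.27), then *Fam167a* and *Rbp7*. *Mt1* had 4064, 3169.6 and 2272 normalized counts in obese and 1482, 1122 and 879.9 in lean mice, the same order of mice as *Lipe*. *Mgll* was nearest to *Mafg* (0.16), *Tmem45a* and *Saraf*, *Plin2* to *A4galt* (0.24), *Timp1* and *Rufy4*, and *Plin5* to *Car4* (0.17), *Fam107a* and *Vwa3a*.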

How the data were processed

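RNA-seq of the atria of 3 obese and 3 lean mice was used. Per the labels and the study's methods, alignment to GRCm38 was done with STAR, assignment to Ensembl genes with Salmon and the comparison of diets with DESeq2. The signal that the authors deposited is a count of reads divided by a DESeq2 size factor. The authors also deposited log2 fold changes with standard errors, p-values and scores of their own comparison, which were not used. Dividing by the smallest positive value of a sample gave whole reads for 100% of its values (tolerance 0.02). A row without a gene, with 0% of the values, was dropped. Whether counting used strand is not stated, so a gene that overlaps another on the opposite strand is uncertain.

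Because the values were normalized, limma 3.58.1 in R 4.3.3 (lmFit, eBayes with a variance trend) was used on log2(normalized count + 1), which understates the change of low genes, with genes of a mean of at least 10, Benjamini-Hochberg adjustment and a threshold of 0.05. The limma fit was tested on simulated data. Ratios and shares had two-sided exact permutation tests. With 3 reads as the smallest signal the limit was 2.05 to 3.41 normalized counts, for counting error only. Names came from GENCODE, which matched 42462 of 43432 identifiers (97.8%), promoters from RefSeq (GRCm38.p6, all 10 genes matched). Protein sequences were not used here.

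The 10 genes and the lists were chosen with earlier results of these data known. Named were all 10 genes, the called genes of each further list (at most 6) or its gene of smallest p, defining cell type markers, and the 3 nearest profiles of each called gene. A called gene of the further lists is not reported here by name. *Lrg1*, *Fitm1*, *Egln3*, *Fabp4*, *Pecam1*, *Adrb1*, *Prkaca*, *Adrb3* and *Prkar2b* were named after their values were seen. The alternatives were quantile normalization, no variance trend, no filter, a minimum of 10 in every sample, a pseudocount of 0.1, mitochondrial genes left out, leaving out each mouse in turn, a block for the replicate number, edgeR 4.0.16 (TMM or RLE) and DESeq2 1.42.0 on the recovered reads and, added after seeing the data, a white adipocyte covariate and the shares of the coat genes.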

Additional observations from a re-analysis of the deposited data

How the results depend on the processing

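With 3 mice a group and adjusted p-values of *Mgll*, *Plin2* and *Plin5* close to 0.05, the calls depended on the test, while no called gene turned direction under any alternative run. Of the 10 genes, 4 were called as reported, 1 with quantile normalization, with mitochondrial genes left out and with edgeR under TMM or RLE, 2 with the white adipocyte covariate, 5 with DESeq2 (*Plin4* added), and 0 without a variance trend, where 1717 genes of all tested had an unadjusted p under 0.05. *Lipe* was called in 10 of 11 such settings. Over all genes 114 were called, 443 with DESeq2, 0 without a variance trend and 14 to 342 with a mouse left out; for the 10 genes that range was 0 to 5. Over the further lists 6 genes were called, 20 with DESeq2, 0 without a variance trend and 2 to 12 with a mouse left out. The cause of these differences was not tested. Leaving out a mouse turned the log2 fold change of *Plin3* (-0.17 to 0.10) and *Abhd5* (-0.064 to 0.0025), the log2 ratio difference of *Hilpda* to *Pnpla2* (-0.40 to 0.0032) and *Plin5* to *Plin2* (-0.029 to 0.34), and the difference of the *Plin4* share (-0.26 to 5.25 percentage points). The replicate numbers name different animals, and same-numbered mice did not deviate together (r = 0.12, -0.03 and -0.004). With the replicate number as a block 157 genes were called over all genes and 3 of the 10, *Mgll* being lost (adjusted p = 0.065).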

Other observations

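*Abhd5* shares 950 exon bases (15.9% of its exons) with the antisense gene *A730085K08Rik*, which was listed at 31.4 normalized counts in lean mouse 1, at 4.54 in obese mouse 3 and at 0 in the other mice. *Lipe* shares 918 exon bases with the antisense gene *4732471J01Rik*, whose normalized count was 18.1 in obese mouse 1 and 1.14 to 5.10 in the other mice, against at least 643 for *Lipe*. *Mgll* shares 167 exon bases with *Gm26588* (0 to 5.02), and *Plin4* shares 17 with *Hdgfl2*. Strand use in the counting is not stated.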
